A study of Homo sapiens with 60 samples.

Results

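The comparison described here is HCC2935 cells 1 day after osimertinib was removed against the same line still under the drug. HCC2935 is an EGFR-mutant lung adenocarcinoma cell line, and osimertinib is an EGFR kinase inhibitor. Members were chosen by their labels: 3 short washout libraries and 3 osimertinib drug-tolerant persister (DTP) libraries, 6 of the 60 RNA-seq libraries of the series. DTPs had 21 days of 500 nM osimertinib and were harvested under drug. Short washout cells had the same 21 days, were rinsed and were harvested after 24 h in drug-free medium, so both groups share the 21 days of exposure. The other HCC2935 groups, of 3 libraries each, served as points of reference. These were parental cells given DMSO for 24 h, parental cells given 500 nM osimertinib for 24 h (acute), and DTPs left without drug for 10 days, when exponential growth had resumed (long washout). Both parental groups had first been kept 21 days in drug-free medium. PC9, HCC827 and H1975, the other EGFR-mutant lines, went through the same 24 h washout. The labels call the replicates biological triplicates without saying what was separate, so p-values measure the spread between these cultures of 1 line.

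Active EGFR signals through RAS, RAF, MEK and ERK and through PI3K and AKT. ERK output induces the DUSP6 phosphatase, the Sprouty genes, the ETV factors and cyclin D1, and AKT keeps FOXO factors out of the nucleus, so that FOXO target genes are low while the receptor signals. Cyclin D with CDK4 or CDK6, then cyclin E with CDK2, inactivate RB and release E2F factors, which switch on the genes for S phase. EGFR inhibition blocks these signals. Osimertinib binds the receptor irreversibly, so removal of free drug does not by itself free receptor already bound, and receptor activity was not measured in these libraries.

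The 15 HCC2935 libraries held 18.6 to 25.6 M estimated counts each, and the 6 compared here 20.3 to 24.7 M. Keratins, EPCAM, CDH1 and NKX2-1 marked all of them as lung epithelium, with SFTPB at 0.0683 to 2.73 TPM in DTPs and 0.0225 to 0.361 TPM in short washout. The summed level of 5 leukocyte markers was 10.5 to 11.4 TPM in DTPs and 12.2 to 16.9 TPM in short washout, nearly all CD68, with CD3E and PTPRC at or near 0. The 6 fibroblast markers summed to 44.3 to 84.6 TPM and 55.7 to 83.8 TPM, mostly COL1A1. The 4 endothelial markers summed to 14.6 to 18 TPM in DTPs and 11.4 to 14.3 TPM in short washout, mostly CDH5. The part of these markers in the results was not tested. On the second principal component of all 15 libraries DTP replicate 2, at -27.9, stood apart from DTP replicates 1 and 3, at -14.1 and -13.3. Short washout libraries lay at 3.0 to 7.3 and DMSO libraries at 35.3 to 44.1 on the same component, which held 27.1% of the variance. The first component held 51.4%. On it short washout libraries lay at 33.6 to 34.7, DTPs at 28.3 to 31.9 and DMSO libraries at -52.1 to -43.4, so short washout was no nearer DMSO there.

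After 1 day without drug a small part of the genes tested was called, and of 22 gene lists examined the DNA replication list had the largest median change. The edgeR quasi-likelihood test called 503 of 14305 genes at a Benjamini-Hochberg adjusted p under 0.05, which is 3.52%. Of these, 354 were higher in short washout (2.47% of the genes tested) and 149 were lower (1.04%). At an unadjusted p under 0.05 there were 2878 genes (20.1%), 1617 higher and 1261 lower. The median log2 fold change of all genes was -0.01. In bulk RNA, fewer cells of a type and less RNA per cell cannot be told apart, here and below. The count leaned on single libraries: it was 99, 120 and 76 without short washout replicate 1, 2 or 3 and 199 without DTP replicate 2. DESeq2 called 1162 genes, among them 499 of the 503.

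**Figure D1:**
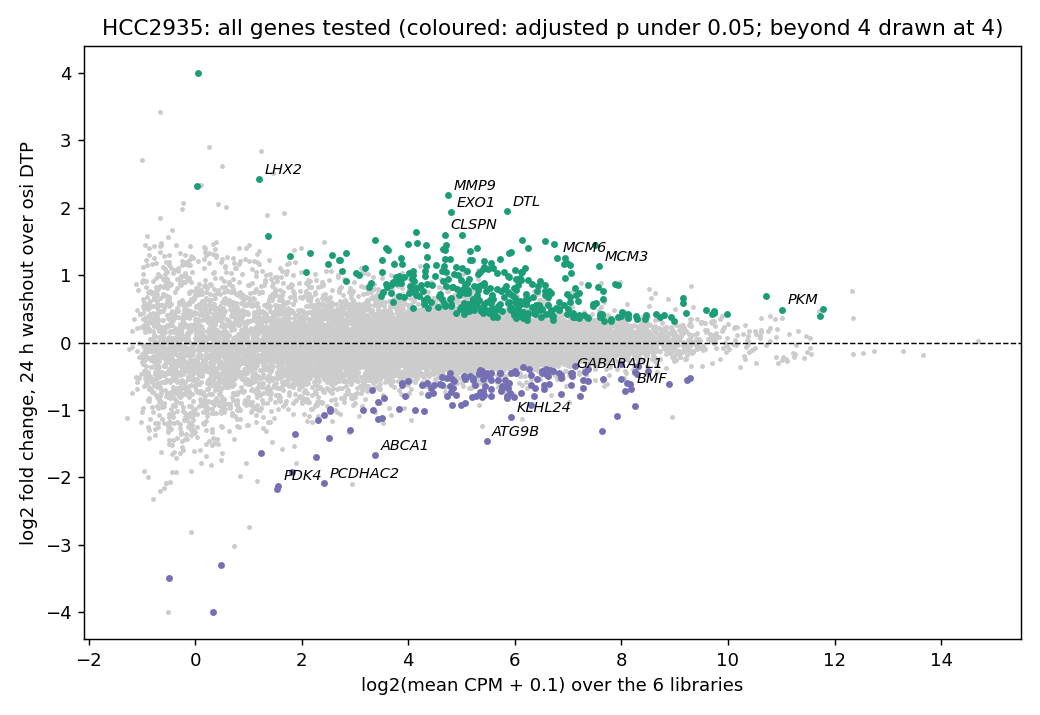
Each point is 1 of 14305 genes, with log2 of its mean CPM plus 0.1 over the 6 libraries on the x axis and the edgeR log2 fold change of short washout over DTPs on the y axis, green where called higher and purple where called lower; points beyond 4 are drawn at 4. Called genes above the line (354) outnumber those below it (149), and MCM6, MCM3, CLSPN, DTL and EXO1 sit well above genes of the same level.

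DNA replication and G1/S genes rose together. All 30 listed genes were tested, 27 were called higher and 0 lower, against 2.47% of all genes called higher, and the median log2 fold change was 1.14. All 30 had a log2 fold change above 0, from 0.57 to 1.60. The 3 that were not called, named after their values were seen, were POLE2 (0.57), GINS1 (0.70) and GINS4 (0.95). Without DTP replicate 2 the call held for 21 genes with a median of 0.99. Without short washout replicate 1, 2 or 3 it held for 15, 17 and 10, with medians of 1.14, 1.14 and 1.11.

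MCM6, a subunit of the replicative helicase, was at 68.7, 52.0 and 75.3 CPM in the 3 DTP libraries and at 164, 147 and 156 CPM in the 3 short washout libraries. The groups were far apart, with the lowest short washout library at 147 CPM and the highest DTP library at 75.3 CPM. The log2 fold change was 1.26 ± 0.12 (SE, edgeR adjusted p = 0.00437). MCM3, of the same helicase, went from 125, 96.1 and 139 CPM to 259, 264 and 266 CPM (1.13 ± 0.12, edgeR adjusted p = 0.00463). CLSPN encodes claspin, which couples the replication fork to checkpoint kinase CHK1. It was at 12, 9.49 and 17.1 CPM in DTPs and 39.4, 39 and 37.9 CPM in short washout, a log2 change of 1.60 ± 0.18. Short washout replicates were tight for all 3 genes, and DTP replicate 2 was the lowest library for each.

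Origin licensing factors were among the 12 largest increases once called genes averaging under 1 CPM, or whose groups overlapped, were set aside. CDC6, which loads the helicase at origins, was at 51.3, 34.5 and 62.8 CPM in DTPs and 144, 137 and 139 CPM after washout. CDT1, its partner in loading, was at 16.1, 9.65 and 22.3 CPM and then at 39.6, 51.1 and 53.7 CPM. ORC1, a subunit of the origin recognition complex, went from 4.73, 4.05 and 7.17 CPM to 15.8, 14.1 and 15.7 CPM. Their log2 fold changes were 1.51, 1.60 and 1.52. UHRF1, which recruits DNMT1 to new DNA, rose by 1.52 ± 0.20 on the log2 scale, MCM10 by 1.47 ± 0.25 and MCM2 by 1.15 ± 0.16. Outside the list, DTL, which targets CDT1 for destruction during S phase, went from 21.1, 18.8 and 31.5 CPM to 111, 65.1 and 99.9 CPM (1.95 ± 0.23). EXO1, a DNA exonuclease of mismatch repair and recombination, went from 12.7, 8.38 and 13.8 CPM to 53, 38.3 and 41.4 CPM (1.94 ± 0.19).

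The promoters of these genes are shown because many carry the letters of an E2F site. RefSeq promoter windows of 300 bases (250 before and 50 after the start, GRCh38.p14) were matched by symbol for 26 of the 30 replication genes. The strings searched on both strands were TTTCGCGC, TTTGGCGC, TTTCCCGC and TTTGCCGC. At least 1 occurred in 17 of the 26, which is 65.4%, against 6.41% of 11286 tested genes with a window and 3.99% of all 27305 symbols. Shown are the 250 bases before the start of 4 genes called higher, MCM6 and CDT1 of this list and DTL and E2F2 from outside it, printed 5′ to 3′ with matches in capitals. MCM6 holds 4 matches that overlap in pairs on opposite strands and begin 152, 148, 90 and 86 bases before the start. The match in E2F2 begins 42 bases before the start, that in CDT1 35 and that in DTL 8. ORC1, CCNE1 and E2F7, also called higher, held none of these strings in the window. In CDC6, CLSPN, MCM2 and EXO1 no whole match lay before the start. A match is a description of the sequence and not a binding site.
MCM6 (chr2:135876444-135876693, minus strand): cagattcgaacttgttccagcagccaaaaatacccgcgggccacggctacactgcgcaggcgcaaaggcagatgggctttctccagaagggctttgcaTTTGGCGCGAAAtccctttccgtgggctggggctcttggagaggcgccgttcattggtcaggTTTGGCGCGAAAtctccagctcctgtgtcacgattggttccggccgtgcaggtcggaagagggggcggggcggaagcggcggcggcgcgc
E2F2 (chr1:23531234-23531483, minus strand): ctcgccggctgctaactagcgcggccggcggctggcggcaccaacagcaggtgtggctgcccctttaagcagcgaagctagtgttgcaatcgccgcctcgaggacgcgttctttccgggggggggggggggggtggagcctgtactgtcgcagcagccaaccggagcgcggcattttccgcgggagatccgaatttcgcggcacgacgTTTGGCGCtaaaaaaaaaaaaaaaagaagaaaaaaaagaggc
CDT1 (chr16:88803539-88803788, plus strand): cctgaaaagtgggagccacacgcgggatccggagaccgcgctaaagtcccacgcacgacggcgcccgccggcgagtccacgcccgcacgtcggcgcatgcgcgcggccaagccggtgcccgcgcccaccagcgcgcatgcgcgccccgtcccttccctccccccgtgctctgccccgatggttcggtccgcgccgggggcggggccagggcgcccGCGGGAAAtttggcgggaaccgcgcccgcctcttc
DTL (chr1:212035498-212035747, plus strand): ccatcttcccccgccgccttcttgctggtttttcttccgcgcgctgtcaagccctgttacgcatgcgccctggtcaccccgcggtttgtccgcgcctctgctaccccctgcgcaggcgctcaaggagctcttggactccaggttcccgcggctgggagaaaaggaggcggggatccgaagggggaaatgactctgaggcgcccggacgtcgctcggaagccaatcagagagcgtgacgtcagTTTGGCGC

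**Figure D2:**
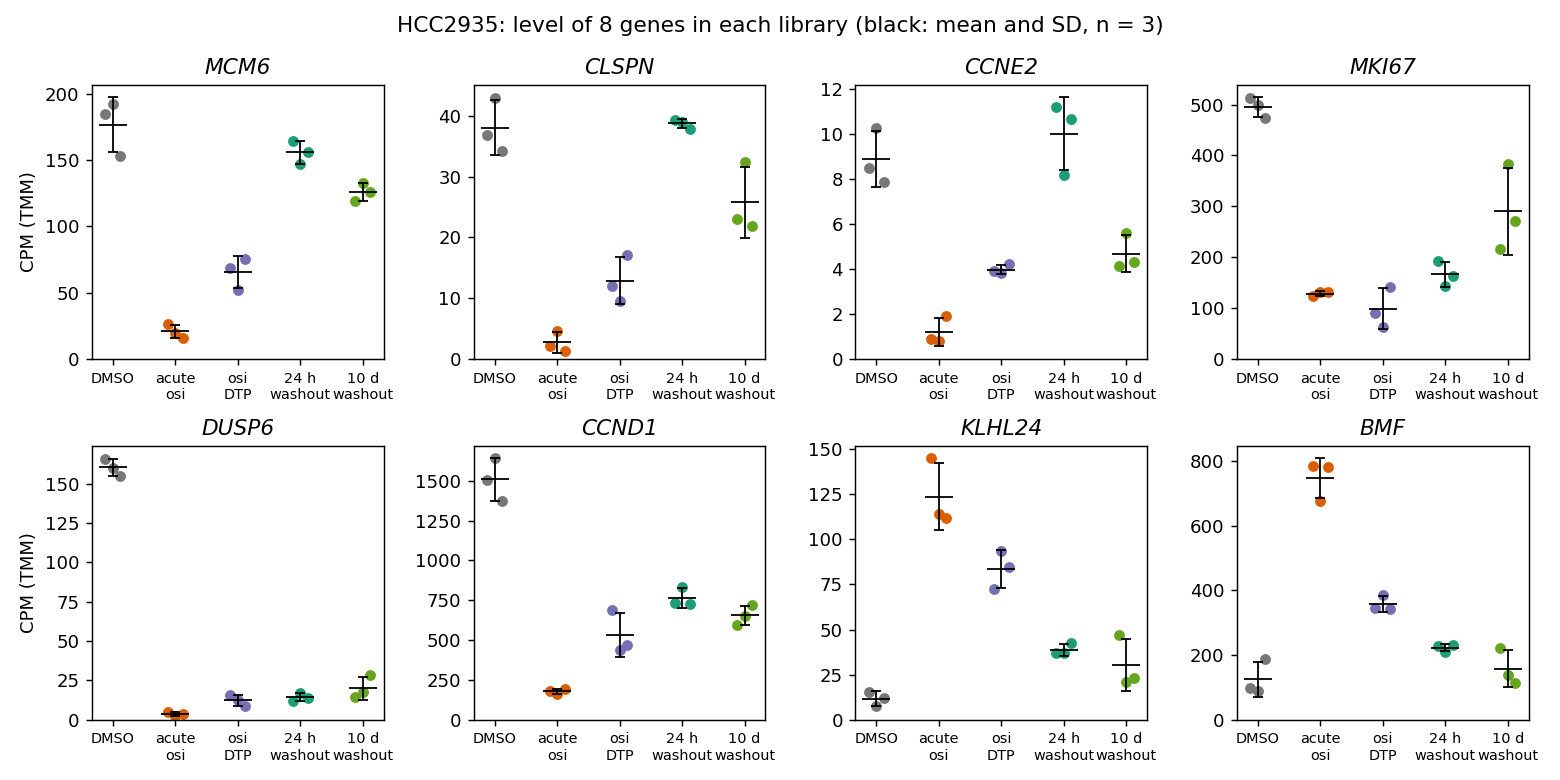
The y axis of each panel is CPM after TMM scaling and the x axis gives the 5 HCC2935 groups; coloured points are single libraries, and black bars the mean and SD (n = 3). MCM6, CLSPN and CCNE2 in the 24 h washout libraries sit above all DTP libraries and near DMSO, DUSP6 stays near its DTP level, and KLHL24 and BMF sit below all DTP libraries.

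Upstream of replication, CCNE1, CCNE2, E2F1 and E2F2 rose, and the other 14 tested G1 regulators were not called. Of 18 tested genes in the list of G1 cyclins, CDKs and inhibitors, 4 were called higher and 0 lower, against 2.47% of all genes called higher, with a median log2 fold change of 0.30. CCNE2 (cyclin E2) was at 3.91, 3.81 and 4.22 CPM in DTPs and 11.2, 8.18 and 10.7 CPM in short washout, a log2 change of 1.33 ± 0.19. CCNE1 went from 12.7, 9.65 and 15.2 CPM to 24, 27.7 and 30.3 CPM (1.13 ± 0.17). E2F2, an activator E2F, went from 5.81, 5.16 and 8.63 CPM to 16.9, 17 and 17.6 CPM (1.40 ± 0.19). The groups overlapped for none of these 3 genes. The fourth, named after its value was seen, was E2F1 at 1.04 ± 0.17. E2F3, another activator E2F named after its value was seen, was not called (0.13 ± 0.10). E2F7, a repressor E2F that is itself an S-phase gene, rose by 1.64 ± 0.24.

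CCND1 (cyclin D1) showed a smaller difference that was not called. Its levels were 688, 437 and 468 CPM in DTPs and 735, 834 and 725 CPM in short washout, without overlap, and its log2 fold change was 0.53 ± 0.15 (edgeR adjusted p = 0.0966, DESeq2 adjusted p = 0.0113). Without short washout replicate 3 no gene of this list was called, and without DTP replicate 3 there were 6.

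Of 30 genes of mitosis and G2/M, 2 were called higher and 0 lower, against 2.47% of all genes called higher. The other 28 did not pass the test, and all 30 log2 fold changes were above 0, from 0.22 to 0.89, with a median of 0.55. AURKB, a kinase of the chromosomal passenger complex, was at 8.69, 7.86 and 12.4 CPM in DTPs and 15.9, 17 and 20.5 CPM in short washout (log2 change 0.89 ± 0.19, edgeR adjusted p = 0.0388). ANLN (anillin, of the cleavage furrow) went from 169, 127 and 231 CPM to 371, 280 and 297 CPM (0.85 ± 0.19, edgeR adjusted p = 0.0441). DTP replicate 3 was the highest DTP library for both. MKI67, the proliferation marker, was at 90.9, 63.5 and 142 CPM in DTPs and 192, 144 and 163 CPM in short washout. Its libraries did not overlap, yet 142 and 144 CPM nearly met, and its log2 fold change of 0.75 ± 0.24 was not called (edgeR adjusted p = 0.121). CDK1 differed by 0.64 ± 0.19 and TOP2A by 0.52 ± 0.27, also not called, and for TOP2A the groups overlapped. This list turned on 1 library: without DTP replicate 3 the count was 14 with a median of 0.89, and without any other single library it was 0. DESeq2 called 8.

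The same windows held other letters in the mitotic list. The hexamer TTTGAA, the core of the cell cycle genes homology region (CHR), occurred on either strand in 20 of 26 matched promoters (76.9%), against 14.2% of tested genes with a window and 18.2% of all symbols. In the replication list it occurred in 1 of 26 (3.85%), and the E2F strings occurred in 3 of 26 mitotic promoters (11.5%). AURKB, called higher, did not hold the hexamer in any window. The promoters of ANLN, also called, and of MKI67, not called, are shown with the hexamer in capitals. ANLN holds an adjacent pair beginning 26 and 20 bases before the start and MKI67 a pair beginning 47 and 29 bases before it.
ANLN (chr7:36389612-36389861, plus strand): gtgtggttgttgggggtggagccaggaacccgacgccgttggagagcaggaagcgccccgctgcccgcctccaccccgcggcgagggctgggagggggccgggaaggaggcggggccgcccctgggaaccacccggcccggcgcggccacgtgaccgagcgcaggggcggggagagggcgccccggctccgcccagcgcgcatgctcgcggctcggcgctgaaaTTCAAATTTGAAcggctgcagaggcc
MKI67 (chr10:128126424-128126673, minus strand): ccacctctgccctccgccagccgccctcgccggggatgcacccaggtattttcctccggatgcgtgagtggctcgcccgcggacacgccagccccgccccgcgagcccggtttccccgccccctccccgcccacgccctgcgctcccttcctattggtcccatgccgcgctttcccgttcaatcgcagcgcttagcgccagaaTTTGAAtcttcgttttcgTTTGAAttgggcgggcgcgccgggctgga

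**Figure D3:**
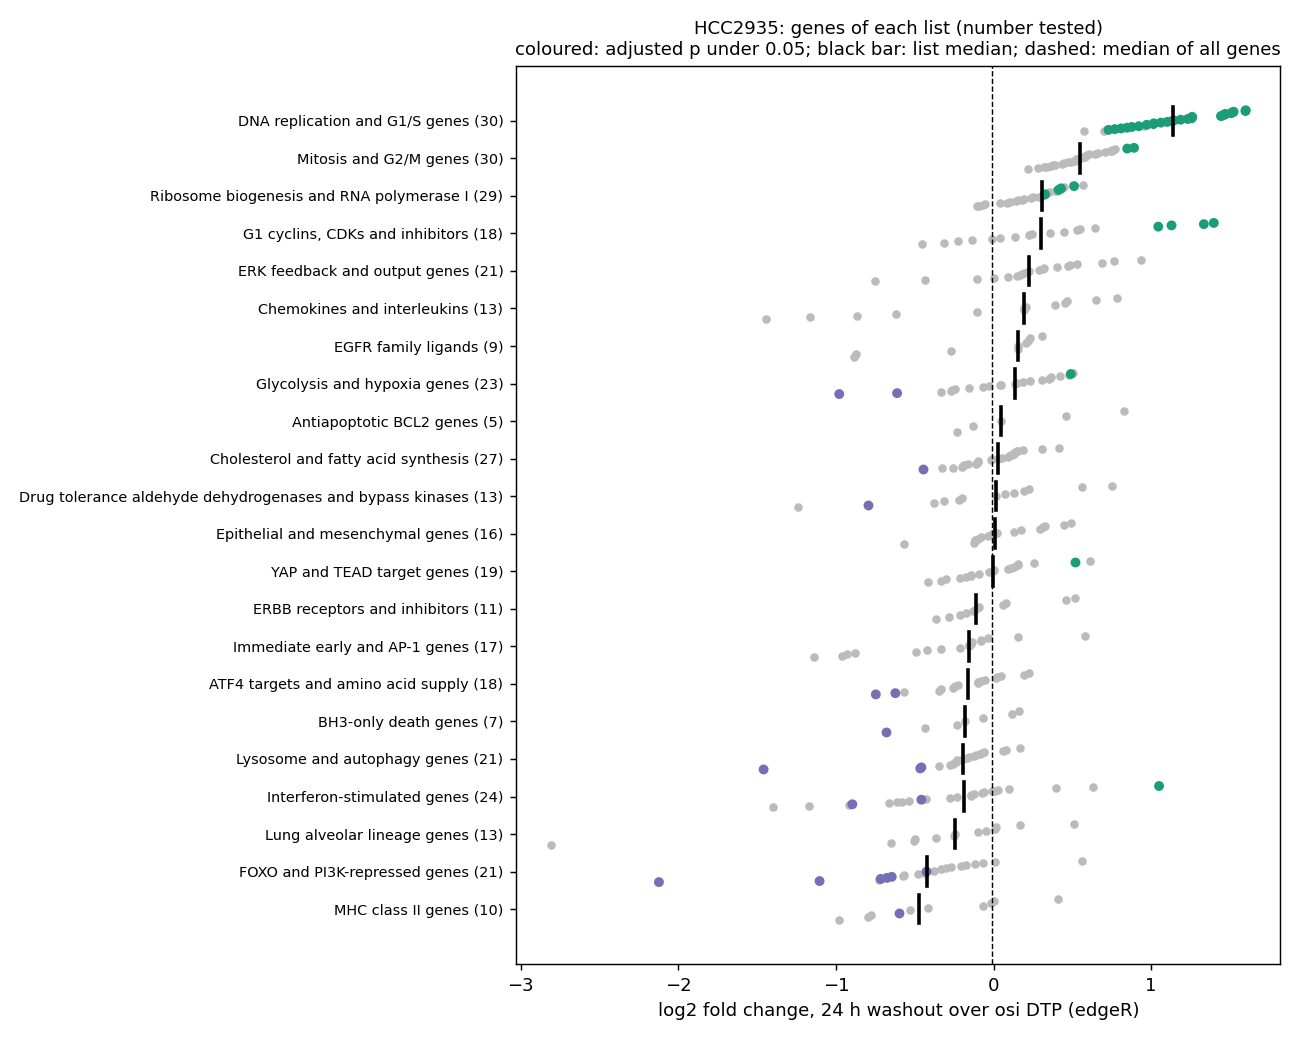
Each point is a gene of 1 of 22 lists, placed by its edgeR log2 fold change (short washout over DTPs) on the x axis, with green for genes called higher, purple for genes called lower and grey for the rest; black bars are list medians and the dashed line the median of all genes. The replication list is shifted as a whole (median 1.14), the mitotic list less (0.55), and the FOXO list to the left (-0.43).

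Direct ERK output genes did not pass the test at 24 h. Of 21 tested ERK feedback and output genes 0 were called by edgeR. At an unadjusted p under 0.05 there were 5 higher and 1 lower, where 20.1% of all genes passed in either direction. DESeq2 called 3 higher and 1 lower. The median log2 fold change was 0.22. DUSP6, the ERK phosphatase, was at 15.5, 12.3 and 8.97 CPM in DTPs, 11.9, 17.1 and 13.8 CPM in short washout and 166, 160 and 155 CPM in DMSO. Short washout and DTP libraries overlapped (log2 difference 0.22 ± 0.22), and both lay far under DMSO. ETV4, an ETS factor downstream of ERK, was at 4.56, 2.30 and 4.75 CPM in DTPs and 8.24, 6.12 and 7.73 CPM in short washout (0.94 ± 0.28, edgeR adjusted p = 0.109, DESeq2 adjusted p = 0.0356). ETV5 stood at 9.85, 4.92 and 9.26 CPM and then 13.6, 12.5 and 14.6 CPM (0.77 ± 0.24, edgeR adjusted p = 0.116, DESeq2 adjusted p = 0.0370). Neither pair of groups overlapped, which is not itself a test, and the share of all genes without overlap is not given here. SPRY1, an inhibitor of receptor signalling, was at 9.20, 12.8 and 10.2 CPM in DTPs and lower at 6.06, 6.63 and 6.48 CPM in short washout (-0.75 ± 0.18, edgeR adjusted p = 0.0547). SPRY2, SPRY4, SPRED1, SPRED2, DUSP4, DUSP5 and PHLDA1 overlapped between groups, with log2 differences from -0.44 to 0.69. Without DTP replicate 1 the list had 6 genes called higher and 1 lower, which is the library in which DUSP4 (68.5 CPM), SPRED1 (41.6 CPM) and CCND1 (688 CPM) were highest among DTPs.

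Immediate early genes were not called, and FOS, EGR1 and FOSB varied widely between replicates. Of 17 tested, 0 were called by edgeR or DESeq2, and 0 had an unadjusted p under 0.05, against 20.1% of all genes. FOS was at 45.5, 163 and 81.4 CPM in DTPs and 39.1, 1.19 and 92.5 CPM in short washout. EGR1 was at 74.5, 303 and 126 CPM and then 58.1, 5.76 and 211 CPM, and FOSB at 18.7, 99.3 and 39 CPM and then 16.6, 1.19 and 65.3 CPM. The same library was lowest in all 3 genes, short washout replicate 2, and the same one highest, DTP replicate 2. MYC, which drives growth genes, had a log2 difference of 0.15 ± 0.15 (22.5 to 32.4 CPM in DTPs, 26 to 30.3 CPM in short washout). FOSL1, an AP-1 subunit under ERK control, was at 17.4, 9.37 and 6.69 CPM and then 13.2, 16.7 and 20 CPM, with overlap.

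No receptor or ligand gene was called by edgeR. The unadjusted counts that follow stand beside 20.1% of all genes at an unadjusted p under 0.05. Of 9 EGFR family ligands tested 0 were called by edgeR, 1 had an unadjusted p under 0.05 (EGF, log2 difference -0.89 ± 0.37), and DESeq2 called 0. AREG was at 28.5, 9.33 and 12 CPM in DTPs and 17.7, 23.1 and 14.6 CPM in short washout, TGFA at 230, 132 and 159 CPM and then 204, 207 and 188 CPM. Of 11 ERBB receptors and inhibitors 0 were called by edgeR, 1 had an unadjusted p under 0.05 (CBLB, -0.29 ± 0.12) and DESeq2 called 0. EGFR itself was at 1076, 780 and 810 CPM in DTPs and 937, 985 and 897 CPM in short washout (0.08 ± 0.12). ERBB2 differed by 0.06 ± 0.08, ERBB3 by -0.11 ± 0.12 and ERRFI1, a feedback inhibitor of EGFR, by -0.21 ± 0.12.

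Some genes that FOXO factors induce fell, and most of the list did not pass the test. Of 21 FOXO and PI3K-repressed genes, 6 were called lower and 0 higher, against 1.04% of all genes called lower, and the median log2 fold change was -0.43. KLHL24, a substrate adaptor of ubiquitin ligases, was at 72.5, 93.3 and 84.4 CPM in DTPs and 36.8, 37.1 and 42.7 CPM in short washout (-1.10 ± 0.12, edgeR adjusted p = 0.00463). CCNG2, an atypical cyclin that restrains proliferation, went from 49.8, 57.7 and 48.9 CPM to 31.3, 34.6 and 29.3 CPM (-0.72 ± 0.11). PDK4, the kinase that shuts off pyruvate dehydrogenase, went from 3.61, 7.03 and 3.15 CPM to 0.769, 1.01 and 1.41 CPM (-2.12 ± 0.41). The groups were separate for all 3. The other 3, named after their values were seen, were PIK3IP1 (-0.68), SESN3 (-0.65) and YPEL5 (-0.42). The call held for 2 genes without DTP replicate 2, and for 1, 2 and 1 without short washout replicate 1, 2 or 3, with list medians from -0.32 to -0.44 in these 4 cases. The FOXO heptamer GTAAACA occurred on either strand in 4 of 18 matched promoters (22.2%), against 3.60% of tested genes with a window, and in those of KLHL24, CCNG2 and PDK4 these letters were not in the window.

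One proapoptotic gene fell. BMF, a BH3-only protein that releases BAX and BAK, was at 345, 387 and 342 CPM in DTPs and 229, 210 and 231 CPM in short washout (-0.68 ± 0.08, edgeR adjusted p = 0.00667). It was the only one called of 7 BH3-only genes, against 1.04% of all genes called lower. It overlaps an antisense gene in the annotation, and other named genes also overlap genes on the other strand (listed with the processing). Strand use in counting was not given in the sources used here. BCL2L11 (BIM), a proapoptotic gene that ERK restrains, was at 38.3, 32.5 and 39.9 CPM and then 34.2, 27.3 and 32.9 CPM, with overlap. Of 5 antiapoptotic BCL2 genes 0 were called by edgeR or DESeq2, and 1 had an unadjusted p under 0.05 (MCL1, -0.23 ± 0.10). That p was reached by 20.1% of all genes.

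**Figure D4:**
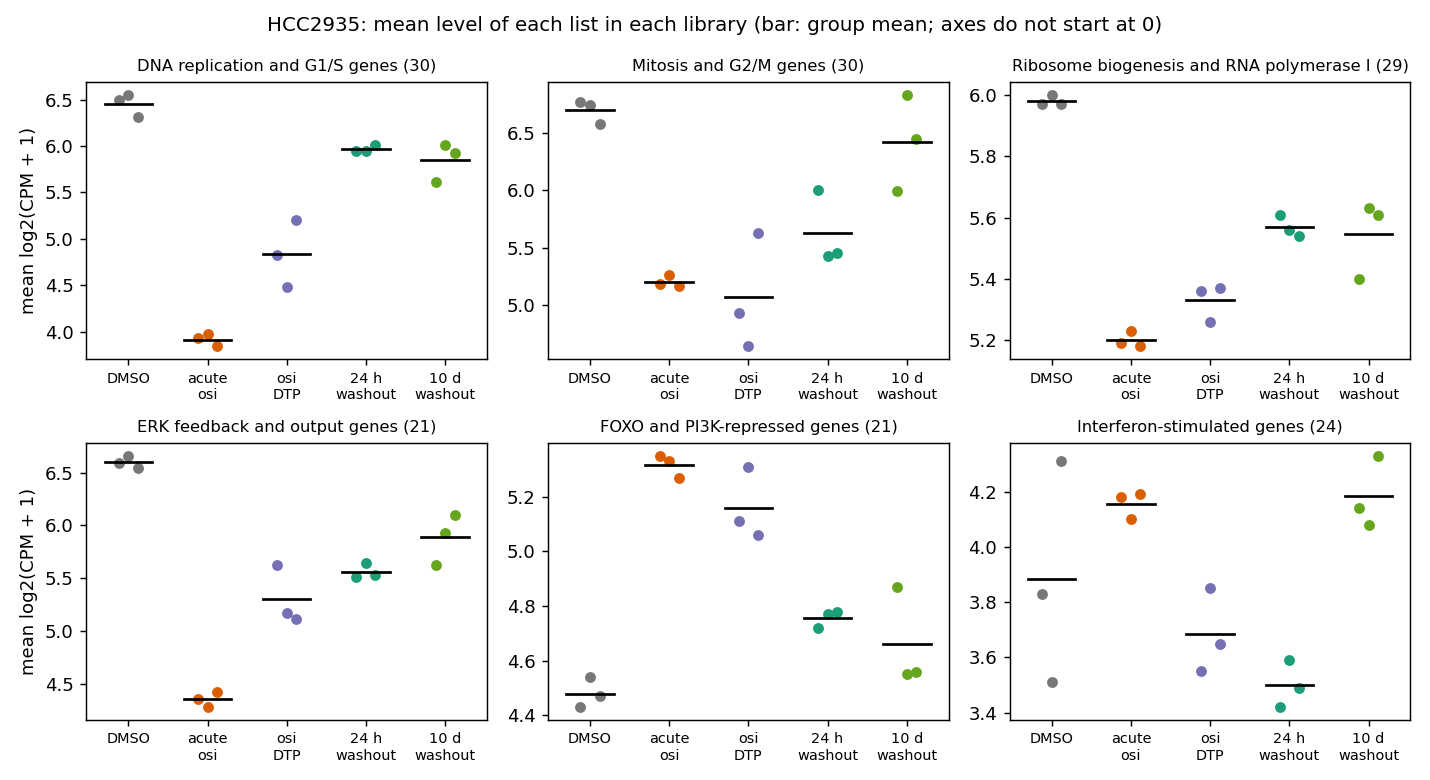
Each point is 1 library, its y value the mean of log2(CPM + 1) over the tested genes of a list and its x position the HCC2935 group; bars are group means, and the axes do not start at 0. The replication list goes from 4.83 in DTPs to 5.97 after 24 h of washout and 6.45 in DMSO, while the ERK output list goes from 5.30 to 5.56 with DMSO at 6.60. In acute libraries the replication list was at 3.91 and the ERK output list at 4.35, both below DTPs.

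Of 29 genes of ribosome biogenesis and RNA polymerase I, 4 were called higher and 0 lower (median 0.31), against 2.47% of all genes called higher. NOLC1, a nucleolar phosphoprotein, was at 83.3, 76.5 and 85.8 CPM in DTPs and 117, 110 and 103 CPM in short washout (0.43 ± 0.08). NOP56, of the box C/D snoRNP, differed by 0.51 ± 0.10 and NCL (nucleolin) by 0.33 ± 0.07, and the fourth, named after its value was seen, was MYBBP1A (0.41). Leaving out any single library left at most 2 called genes of this list, and 0 without DTP replicate 2 or short washout replicate 1 or 2. Of 23 genes of glycolysis and hypoxia, PKM (pyruvate kinase) was called higher, at 1728, 1485 and 1963 CPM in DTPs and 2498, 2399 and 2368 CPM in short washout (0.49 ± 0.10). ADM and NDRG1, both induced by hypoxia, were called lower (-0.61 ± 0.11 and -0.98 ± 0.20), where 1.04% of all genes were called lower. Of 18 ATF4 targets, DDIT4, an inhibitor of mTORC1, was lower by -0.75 ± 0.11 and the stress factor DDIT3 (CHOP) by -0.62 ± 0.12. Of 27 genes of cholesterol and fatty acid synthesis 1 was called, SC5D, lower (-0.45 ± 0.09), and the list median was 0.03.

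Of 21 lysosome and autophagy genes 3 were called lower and 0 higher, against 1.04% of all genes called lower, with a median of -0.19. GABARAPL1, an autophagosome protein, was at 155, 157 and 150 CPM in DTPs and 116, 113 and 108 CPM in short washout (-0.46 ± 0.07). NPC1, which exports cholesterol from lysosomes, differed by -0.46 ± 0.08. ATG9B was at 47.0, 100 and 47.5 CPM and then 19.7, 27.4 and 24 CPM (-1.46 ± 0.28), and its exons overlap those of NOS3 on the other strand.

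Immune lists were mixed. Of 24 interferon-stimulated genes 1 was called higher and 2 lower (median -0.19), against 2.47% and 1.04% of all genes. OAS3, an antiviral oligoadenylate synthetase, was at 49.2, 33.7 and 54.2 CPM in DTPs and 94.8, 85.9 and 102 CPM in short washout (1.05 ± 0.16). IFIT2 was at 35.6, 54.2 and 40.5 CPM and then 22.6, 21.8 and 25.8 CPM (-0.90 ± 0.16), and IFIT3 differed by -0.46 ± 0.10. Of 10 MHC class II genes HLA-DMA, a peptide-loading chaperone, was called lower (-0.60 ± 0.13). Of 13 chemokines and interleukins 0 were called by edgeR or DESeq2. An unadjusted p under 0.05 was found for 2, CCL20 (-1.44 ± 0.52) and CXCL2 (-1.17 ± 0.45), and for 20.1% of all genes.

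Identity and tolerance lists held few called genes. Of 19 YAP and TEAD targets NT5E, an ecto-enzyme that makes adenosine, was called higher (0.51 ± 0.08), against 2.47% of all genes. The list median was 0.00. Of 16 epithelial and mesenchymal genes and 13 alveolar lineage genes 0 were called by edgeR, and DESeq2 called 2 and 2. An unadjusted p under 0.05 was found for 3 and 4, and for 20.1% of all genes. CDH2 (N-cadherin) was at 283, 310 and 307 CPM in DTPs and 373, 397 and 350 CPM in short washout (0.31 ± 0.08, edgeR adjusted p = 0.0660). NKX2-1, the lung lineage factor, was at 94.9, 93.6 and 84.9 CPM and then 60.2, 56.1 and 76.7 CPM (-0.50 ± 0.12, edgeR adjusted p = 0.0547). Of 13 aldehyde dehydrogenases and bypass kinases MERTK, a TAM family receptor kinase, was called lower, against 1.04% of all genes. It went from 35.9, 30.3 and 34.4 CPM to 22.4, 17.3 and 18.1 CPM (-0.80 ± 0.13). ALDH1A1 was at 32.9, 65.3 and 78.1 CPM in DTPs and 32.7, 19.9 and 22.2 CPM in short washout, where the groups nearly met (edgeR adjusted p = 0.0536).

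Outside the lists, the largest called increases included LHX2 and MMP9. LHX2, a LIM homeobox factor, was at 0.688, 0.595 and 0.775 CPM in DTPs and 1.81, 3.34 and 5.98 CPM in short washout (2.43 ± 0.47). MMP9, a secreted gelatinase, was at 7.83, 4.76 and 16.6 CPM and then 44.4, 40.8 and 46.6 CPM (2.19 ± 0.35). MMP9 was at 2.70 to 3.09 CPM in DMSO, so it moved away from the DMSO level. TICAM2, a Toll-like receptor adaptor, differed by 1.59 ± 0.29 and shares exons with the read-through gene TMED7-TICAM2.

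Among the largest called decreases, ABCA1, which exports cellular cholesterol, was at 16.9, 21.2 and 8.72 CPM in DTPs and 3.76, 4.48 and 6.53 CPM in short washout (-1.67 ± 0.33). PCDHAC2, a clustered protocadherin, was at 6.32, 10.0 and 9.26 CPM and then 2.17, 2.15 and 1.71 CPM (-2.08 ± 0.25), and it shares exons with 14 other protocadherin alpha genes, so its counts are uncertain. ADGRV1, an adhesion GPCR, differed by -1.92 ± 0.42. SLCO4C1, an organic anion transporter, differed by -1.70 ± 0.38, MS4A15 by -1.63 ± 0.31, GSTA4, a glutathione transferase, by -1.42 ± 0.26, PLA2G10, a secreted phospholipase, by -1.35 ± 0.26 and C2CD6 by -3.30 ± 0.74. The read-through gene TRIM6-TRIM34 had 24, 37 and 92 estimated counts in DTPs and 0 in every short washout library, at least 16.4-fold lower against a floor of 3 counts per library. It shares exons with TRIM6 and TRIM34, and SMIM11B (-2.18 ± 0.49) has a near-identical copy, so both are uncertain.

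Against untreated cells, cells after 24 h of washout still differed widely. edgeR called 7177 of 14148 genes between short washout and DMSO (50.7%), 3491 higher in short washout (24.7%) and 3686 lower (26.1%). With limma on log2 TPM the split was 4475 higher and 2582 lower, where the median of all genes shifted to 0.14 from -0.01. Comparisons with DMSO and with DTPs share the short washout libraries, so their values are only set side by side. In the replication list 21 of 30 genes were lower than in DMSO and 0 higher, with a median of -0.54, while that list's median against DTPs was 1.14. CLSPN was at 36.9, 43.0 and 34.2 CPM in DMSO (log2 difference 0.02 ± 0.10), MCM6 at 185, 192 and 153 CPM (-0.19 ± 0.09), CCNE1 at 26.1, 24.4 and 19.8 CPM (0.21 ± 0.13) and CCNE2 at 8.50, 10.3 and 7.88 CPM (0.17 ± 0.18). None of these 4 differences from DMSO was called. Mitotic genes were further away: 28 of 30 were lower than in DMSO, with a median of -0.96, MKI67 by -1.58 ± 0.10 and AURKB by -1.58.

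ERK output genes had a larger median difference from DMSO, with 16 of 21 genes lower and a median of -1.14. Over all genes 24.7% were called higher than in DMSO and 26.1% lower. DUSP6 was lower than in DMSO by -3.50 ± 0.13, ETV4 by -2.62 ± 0.13, SPRY4 by -2.49 and CCND1 by -0.99 ± 0.09. Of 21 FOXO targets 10 were higher and 5 lower, against the same 24.7% and 26.1% of all genes. KLHL24 was still higher than in DMSO by 1.71 ± 0.21 while CCNG2 was not called (-0.27 ± 0.14). Of 19 YAP and TEAD targets 13 were higher than in DMSO, of 27 cholesterol and fatty acid genes 24 were lower, and CDH2 and VIM were higher by 3.81 ± 0.19 and 3.13.

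Between 24 h and 10 days without drug, fewer genes were called. edgeR called 150 of 14292 (1.05%), 89 higher in long washout (0.623%) and 61 lower (0.427%). The count was 7, 10 and 1 without short washout replicate 1, 2 or 3, 971 without long washout replicate 1 and 16 without long washout replicate 3, and DESeq2 called 711. In the replication list 0 of 30 genes were called by edgeR, DESeq2 called 3 lower, and the median was -0.10. At an unadjusted p under 0.05, 6 were lower and 0 higher, where 16% of all genes passed in either direction. CCNE2 fell again, from 11.2, 8.18 and 10.7 CPM to 4.14, 5.63 and 4.30 CPM (-1.09 ± 0.21, edgeR adjusted p = 0.0465). MMP9 fell by 1.03 on the log2 scale, to 24.4, 18.6 and 21.5 CPM. Mitotic genes had a median of 0.79 with 1 of 30 called higher, CENPA (1.26, edgeR adjusted p = 0.0498, named after its value was seen), and 27 were called without long washout replicate 1. MKI67 was at 216, 384 and 271 CPM at 10 days (0.81 ± 0.19, edgeR adjusted p = 0.0799).

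Interferon-stimulated genes rose in this later interval. Of 24 tested 12 were called higher and 0 lower, with a median of 0.95, against 0.623% of all genes called higher. IFIT2 went from 22.6, 21.8 and 25.8 CPM to 41.3, 48.3 and 45.3 CPM (0.95 ± 0.12, edgeR adjusted p = 0.0146), and IFIT3 rose by 0.88. HLA-DMA rose by 0.86 (edgeR adjusted p = 0.0458). The list count was 0, 2 and 0 without short washout replicate 1, 2 or 3 and 2 without long washout replicate 3, with medians from 0.85 to 0.99. ERBB2 fell by 0.49 and the ligand EPGN rose by 1.74 on the log2 scale (edgeR adjusted p = 0.0356 and 0.0146). DUSP6, at 14.2, 17.9 and 28.2 CPM, was still far from DMSO.

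The same 24 h of washout was compared in the other lines. PC9 had 3221 of 14526 genes called (22.2%), and HCC827 and H1975 had 0 of 14009 and 0 of 14665 called by edgeR (0% each), with 197 and 1950 genes at an unadjusted p under 0.05. The spread between replicates differed, with a biological coefficient of variation of 15% in HCC2935, 11.4% in PC9, 23.4% in HCC827 and 16.2% in H1975. The replication list had a median log2 fold change of 1.14 in HCC2935, 0.47 in PC9 (24 of 30 called higher), 0.17 in HCC827 and 0.69 in H1975. In H1975 all 30 were above 0, and 29 were higher at an unadjusted p under 0.05, against 1 in HCC827. MCM6 differed by 1.26, 0.54, 0.10 and 0.45 in the 4 lines in that order, and CDC6 by 1.51, 0.73, 0.19 and 0.82. The mitotic list had medians of 0.55, 0.18, 0.24 and 0.78, and the FOXO list -0.43, -0.50, -0.12 and -0.30. DUSP6 differed by 1.15 in PC9, -0.44 in HCC827 and -0.47 in H1975, against 0.22 in HCC2935.

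**Figure D5:**
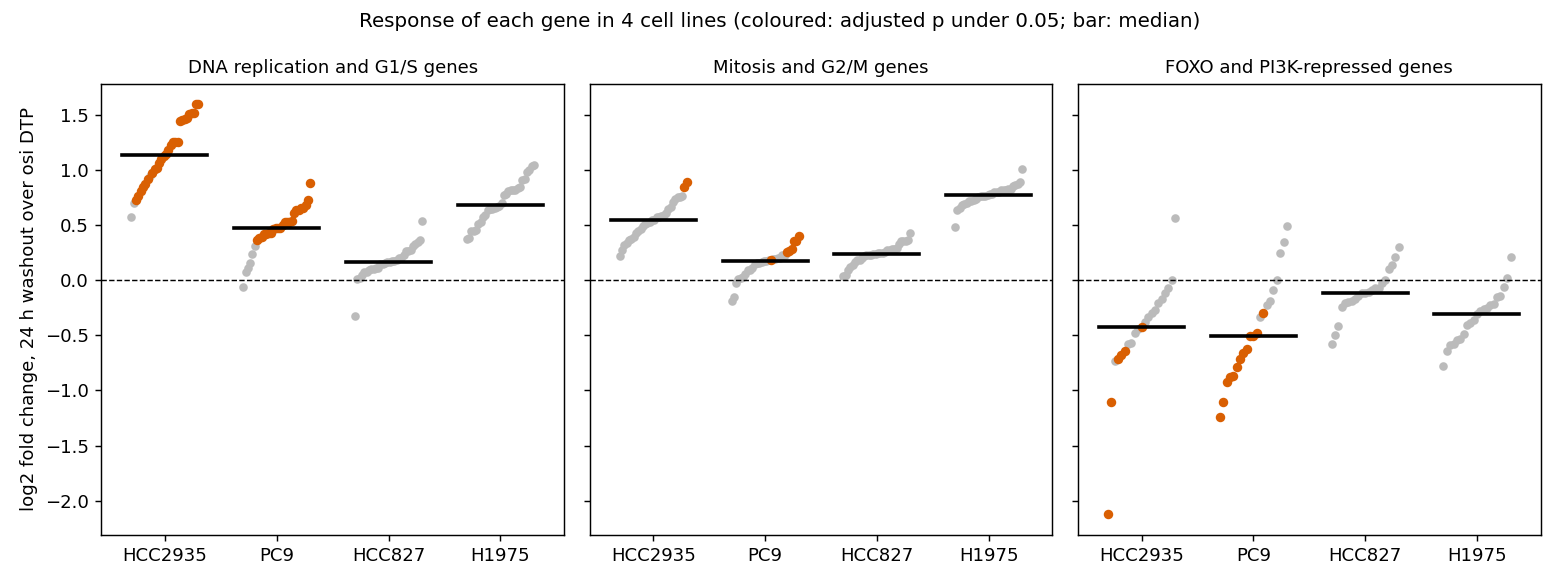
Each point is a gene, with its edgeR log2 fold change of 24 h washout over DTPs on the y axis in 4 cell lines on the x axis; coloured points are called in that line and bars are medians. The replication genes are highest in HCC2935 (median 1.14) and lowest in HCC827 (0.17), mitotic genes are highest in H1975 (0.78), and no gene is coloured in HCC827 or H1975.

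The test of the difference itself called 1 gene against the mean of the other lines. Over 24 libraries, edgeR called 1 of 16120 genes (0.0062%) for a response that differed from the mean of PC9, HCC827 and H1975. That gene was PCDHAC2, which fell in HCC2935 and differed by 0.81, 0.33 and 0.25 in the other lines (log2 difference of responses -2.55 ± 0.31, edgeR adjusted p = 0.00108). In the replication list 0 of 30 were called, with a median difference of 0.69. MCM6 came closest (0.89 ± 0.16, edgeR adjusted p = 0.0578), and DESeq2 called 6. An unadjusted p under 0.05 was found for 27 of the 30, all higher in HCC2935, against 8.12% of all genes. The count over all genes was 107 by DESeq2, 16 without DTP replicate 3, 7 without short washout replicate 2 and 2 without DTP replicate 1, DTP replicate 2 or short washout replicate 3, and against single lines it was 42 for PC9, 0 for HCC827 and 0 for H1975.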

How the data were processed

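Poly(A) RNA-seq of 60 libraries was deposited as 2 gene tables. The submitters' processing notes list HISAT2 2.1.0, Salmon 0.8.2 and hg38. By their values, the deposited estimated counts are the authors' TPM rescaled by 1 factor per gene and 1 per library (checked on 9861 genes). They thus carry length-scaled and not raw reads. The authors' second table holds log2 of TPM plus 0.01. Estimated counts were rounded and tested with edgeR 4.0.16 (quasi-likelihood, TMM, filterByExpr, Benjamini-Hochberg, threshold 0.05) in R 4.3.3, each comparison on its own libraries. DESeq2 1.42.0 and limma 3.58.1 (log2 TPM) were alternatives, with other scalings, filters, a replicate block and each library left out. SE is the log2 fold change over the root of F, and CPM are TMM-scaled. On simulated data for the main comparison (14305 genes) edgeR recovered 76% of 100 genes changed 2-fold and 42% of 100 changed 1.5-fold, and 7.81% of its calls were false. For DESeq2, 15.48% were false. Named genes were all genes of the 4 signalling lists, the 3 members of each other list with the smallest p, the 12 highest and 12 lowest called genes of at least 1 CPM without overlap, and MKI67, TOP2A, CDK1, MCM2, CCND1 and MYC. The comparison and the lists were chosen with earlier results of these data known. Genes outside this rule are said to be named after their values were seen. Exons shared with other genes came from GENCODE and promoters from RefSeq (GRCh38.p14). Named genes whose exons overlap those of a gene on the other strand include BMF, ATG9B, CCNE2, MMP9, LHX2, ANLN, MCM2, CLSPN, CCND1 and DUSP6. DDIT3, IFIT2, HLA-DMA and NKX2-1 overlap other genes on both strands. The part of these overlaps in the counts was not tested. Some withheld items are not reported here.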

Additional observations from a re-analysis of the deposited data

Results flagged for a closer look

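PCDHAC2, a clustered protocadherin, responded differently to 24 h of washout in HCC2935 than in the mean of PC9, HCC827 and H1975, by the test of that difference (log2 difference of responses -2.55 ± 0.31, edgeR adjusted p = 0.00108). Its log2 fold change was -2.08 in HCC2935, 0.81 in PC9, 0.33 in HCC827 and 0.25 in H1975. The estimated counts behind it in HCC2935 were 147, 252 and 191 in DTPs and 48, 47 and 34 in short washout. In PC9 they were low, at 25, 17 and 37 in DTPs and 50, 37 and 46 in short washout. Against HCC827 alone or H1975 alone 0 genes were called. PCDHAC2 shares exons with 14 protocadherin alpha genes, and the part of that sharing in the difference was not tested.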

How the results depend on the processing

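Genes called between short washout and DTPs were 503 with edgeR, 1162 with DESeq2, 244 with the replicate block, 88 at a threshold of 0.01 and 76 to 674 with 1 library left out, and 232 of the 244 were among the 503. Between long and short washout the 150 became 711 with DESeq2, 257 in a fit on all 15 HCC2935 libraries, 9 at 0.01 and 1 to 971 with 1 library left out. For the difference between lines the 1 became 107 with DESeq2, 5 with RLE size factors, 5 with at least 10 counts in every library, 14 with limma, 2 with no filter, 68 with the replicate block, 42 against PC9 alone, 0 against HCC827 alone, 0 against H1975 alone and 1 to 16 with 1 library left out. Counts against DMSO stayed within 1.5 times of 7177, from 5143 to 7258. The cause of these shifts was not tested. Replicate numbers in short washout and DTPs share only a number. Deviations of same-numbered libraries correlated at -0.0977, -0.0937 and -0.0232, and no library correlated best with its own number. Of 52 named genes called between short washout and DTPs, 42 lost the call without some library and 25 under some other setting, and 0 changed direction. With 3 libraries a group, changes under 2-fold are often missed.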

Other observations

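Gene families were picked by symbol after the values of 24 h of washout against DTPs were seen, so their counts support nothing, and no test was run over any family. Over all genes, 2.47% were called higher and 1.04% lower. All 5 tested RFC genes, which load the replication clamp, were called higher (median log2 fold change 0.75), as were 7 of 11 replicative polymerase and primase genes (0.64) and 3 of 4 CHAF1 and ASF1 histone chaperone genes (1.11). Of 10 Fanconi anaemia (FANC) genes 4 were called higher (0.63) and of 4 MSH mismatch repair genes 1 (0.34). Of 8 HAUS augmin genes, which nucleate spindle microtubules, 5 were called higher (0.48), and of 22 CENP genes 5 (0.52).

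Of 33 kinesin (KIF) genes 1 was called higher (median 0.25) and of 22 nucleoporin (NUP) genes 5 (0.26). Of 37 proteasome genes 1 was called (0.08). Of 77 cytoplasmic ribosomal protein genes 0 were called by edgeR or DESeq2 (0.05), with 9 higher and 2 lower at an unadjusted p under 0.05. That p was reached by 20.1% of all genes. Of 460 ZNF genes 2 were called higher and 6 lower (-0.09).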
